A study of Mus musculus with 18 samples.

Results

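The genes described here encode enzymes and partner proteins that modify transfer RNA (tRNA), and they were followed in brains of wild-type (WT) mice and of mice lacking Ftsj1, itself a tRNA modification gene. The list names 60 genes, and each is represented by the transcript record of its symbol that held the most counts over 12 sequencing libraries; the whole table holds records of 32812 genes. All 6 mice were C57BL/6 males aged 8 weeks, untreated, 3 WT and 3 with the Ftsj1 knockout (KO), and both groups were otherwise described alike. From each whole brain, 1 library was made of polyadenylated RNA (total mRNA) and 1 of the mRNA fragments protected by ribosomes (ribosome-contained mRNA, or footprints), so that n = 3 mice stands behind every group mean below. How the KO allele was made is not given in the sources used here.

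Transfer RNAs are chemically modified at many positions after transcription, most densely in the anticodon loop that reads the codon. Modifications at the wobble base, and at the base next to the anticodon on its other side, tune how codons are read, and many of the enzymes work as a catalytic subunit with a partner that selects the tRNA. Ftsj1 methylates the ribose of nucleotides in the anticodon loop; in humans it works with WDR6 at the wobble position and with THADA at another position of the loop. Inherited defects of several of these enzymes, FTSJ1, NSUN2 and ADAT3 among them, cause intellectual disability in humans.

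Counts were spread very unevenly over the 60 genes. In all 12 libraries together, 7 genes had a count of 0: Ftsj1 itself, Trit1, Tyw3, Pus10, Trmt1l, Trmt6 and Mto1. Another 32 had between 1 and 67 counts (median 8.5) and did not pass the filter on low counts. The remaining 21 could be tested in total mRNA, and 12 of those also in ribosome-contained mRNA. The members together held 31880 counts, of which the Ftsj1 partner Wdr6 took 40.8% and the cytosine methyltransferase Nsun2 took 22%.

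Whether a gene was measured went with how many transcript records the table lists for it. Of the 14 members with a single record, 11 were tested in total mRNA and 9 in ribosome-contained mRNA. Of the 46 with several records, 10 and 3 were tested. All protein-coding genes of the table followed the same order: the share reaching 120 counts in the 12 libraries together was 39.5% with a single record, 23.9% with 2 records and 10.8% with 3 or more. A low count or a 0 for a gene with several records therefore sets no limit on its expression. Trmt1l and Trmt6 were at 0 with a single record each, while RefSeq has 4 and 5 transcript models of them. Of all coding genes with a single record, 38.0% were at 0, so the 0 of these 2 is not read as absence either. Ftsj1 has more than 1 record, lies on chromosome X (8238668 to 8252406, GRCm38), and was at 0 in the 6 WT and in the 6 KO libraries, so the knockout could not be checked on the gene itself. Its other partner, Thada (chromosome 17, 84190056 to 84466246), had 1 count in all.

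**Figure D1:**
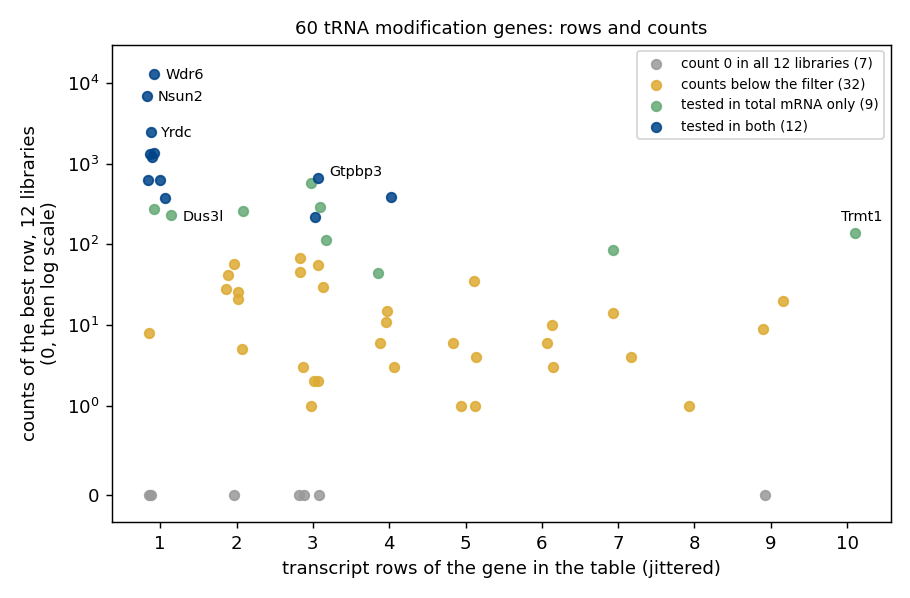
Each point is 1 of the 60 tRNA modification genes, placed by the number of transcript records of the gene in the table (x axis, jittered) and by the counts of its best record over 12 libraries (y axis, 0 and then log scale); colours give whether the record was tested. Genes at 1 record hold the highest counts (Wdr6, Nsun2, Yrdc), and most genes with several records lie under the filter.

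The gap in coverage fell differently on the different chemistries. In the group of ribose methylation, Wdr6 and Ftsj3, a nucleolar methyltransferase better known for ribosomal RNA precursors, were tested, while Ftsj1, Thada, Trmt13 and Trmt44 were not. Of the 5 genes of cytosine methylation and oxidation 3 were tested, and of the 12 genes that act on the base next to the anticodon 5 were. The wobble uridine pathway of the cytosol, made of the Elongator complex, Alkbh8 and the thiolation enzyme Ctu1 with Ctu2, kept only Elp4 and Elp5 of 8. None of the 4 pseudouridine synthases (Pus1, Pus3, Pus7, Pus10), nor the queuosine enzyme Qtrt1, nor the histidine tRNA guanylyltransferase Thg1l passed. The groups of A-to-I deaminases (2 of 3), dihydrouridine synthases (1 of 4), other base methyltransferases (4 of 13) and mitochondrial wobble uridine enzymes (2 of 3) were measured in part. Trmu, of the last group, was measured on a predicted non-coding transcript model.

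A total mRNA library held between 2024748 and 3459406 counts and a footprint library between 1055741 and 1560192. Summed levels of marker genes in total mRNA were high for neurons (10100 to 10400 CPM, counts scaled to a common library size, in WT and 10200 to 10400 in KO) and astrocytes (2800 to 2920 and 2760 to 3090 CPM). They were lower in KO for oligodendrocytes (2050 to 2100 in WT, 1790 to 1970 in KO, with 5 of 7 markers tested, Mag at 0 and no marker called). They were higher in KO for choroid plexus (2340 to 2570 and 2910 to 2940, with 6 of 7 tested, Folr1 at 0 and Ttr called higher). Ttr made up most of that sum, with 7039 counts in WT total mRNA replicate 1 beside 256 for Kl, the next. Of the other markers tested, Aqp1, Clic6, Kl and Sostdc1 had positive log2 fold changes and Kcnj13 a negative one (-0.125), and none passed. The sums for microglia (Csf1r at 0), endothelial cells (Pecam1 at 0) and blood cells overlapped between genotypes. Whether these shifts had a part in any value below was not tested, and in whole brain fewer cells of a type cannot be told apart from less RNA per cell.

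A trio of genes stood well above the other measured enzymes when levels were set per transcript length. In WT total mRNA, Nsun2 was at 97.1 ± 2.44 CPM per kilobase of transcript (mean ± SD, n = 3), Wdr6 at 95.1 ± 6.44 and Yrdc at 67.5 ± 3.75. Nsun2 writes 5-methylcytosine on many tRNAs, and Yrdc makes the precursor from which threonylcarbamoyladenosine (t6A) is formed next to the anticodon. Nsun2 and Wdr6 did not differ beyond their spread. Then came Ftsj3 (13.6 ± 1.38), Elp4 (12.1 ± 1.39) and the wybutosine enzyme Trmt12 (12.1 ± 0.620), which overlapped in range, and below them Adat3, Lcmt2, Osgep, Dus3l and Alkbh1, from 7.86 down to 3.89 CPM per kilobase. Among 3622 genes with a single record tested in total mRNA, whose median was 24.6, 81.1% lay below Nsun2, 80.7% below Wdr6 and 14.9% below Alkbh1. Pus3, the remaining member of single record with counts, was at 0.106 and was not tested. The 7.86 of Adat3 cannot be assigned to it alone, since other genes on the same strand cover all its exon bases.

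Footprints were set per kilobase of coding sequence, a different length from the one above. On that scale WT total mRNA was at 131 ± 7.29 CPM for Yrdc, 121 ± 3.05 for Nsun2 and 117 ± 7.94 for Wdr6. In footprints Wdr6 was highest. Per kilobase of coding sequence, WT Wdr6 reached 222 ± 13.8 CPM, above Nsun2 at 119 ± 12.8 and Yrdc at 108 ± 13.2, and every WT mouse placed Wdr6 (211 to 238) above Nsun2 (111 to 134). The ranges of Nsun2 and Yrdc overlapped. Elp4 (47.7 ± 1.73), Trmt12 (45.4 ± 10.4) and Osgep (38.5 ± 3.58), the catalytic subunit of the KEOPS complex that attaches t6A, followed. Ftsj3 (27.9 ± 7.02), Lcmt2 (15.6 ± 2.23), which completes wybutosine, and the tRNA demethylase Alkbh1 (11.2 ± 1.76) were lower. Of 3186 genes of a single record tested in footprints (median 83.6), 72.9% lay below Wdr6 and 7.69% below Alkbh1.

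The knockout left the measured tRNA modification genes without a detected change. In total mRNA 0 of 21 members passed the edgeR quasi-likelihood test at a Benjamini-Hochberg adjusted p of 0.05, where it called 27 of 8206 rows in all, or 0.329%. DESeq2 also called 0 members, but its filter left 15 of the 21 without an adjusted p. An unadjusted p under 0.05 was met by 3 members (14.3%, against 8.15% of all rows): Yrdc, Elp4 and Wdr6. The KO and WT mice did not overlap for 3 members (14.3%, against 13.3% of all rows). The fold change was positive for 14 and negative for 7, with a median log2 value of 0.08 over the members and 0.00887 over all rows. The members' summed level was 1100, 1110 and 1150 CPM in the WT mice and 1180, 1160 and 1150 in the KO mice. In ribosome-contained mRNA 0 of 12 passed by edgeR and 0 by DESeq2, where edgeR called 10 of 4749 rows, or 0.211%, and 0 members had an unadjusted p under 0.05 (all rows, 9.48%). Here 8 members were positive and 4 negative, with a median of 0.04 against 0.000155 over all rows. All log2 fold changes of KO against WT in the following are from these fits, with their standard error (SE).

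**Figure D2:**
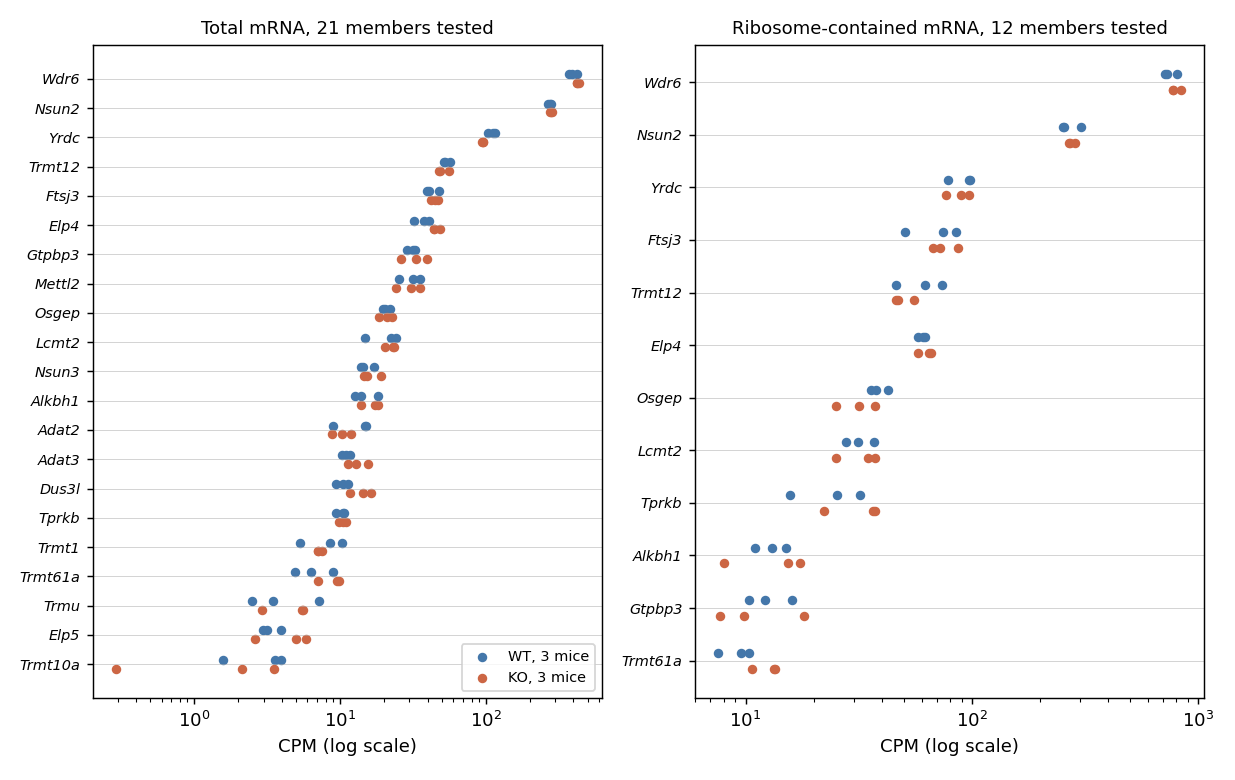
Level of every member tested, in CPM on a log axis, not divided by length, in total mRNA (left, 21 genes) and in ribosome-contained mRNA (right, 12 genes); each point is 1 mouse, blue for WT and orange for KO. The genotypes lie side by side for most genes, Yrdc, Elp4 and Dus3l are without overlap in total mRNA, and Trmt61a in footprints.

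Wdr6, the member of most counts and the partner of the missing enzyme, was close to its WT level. Its total mRNA was at 373, 389 and 425 CPM in the 3 WT mice and 436, 425 and 423 CPM in the KO mice. WT replicate 3 reached the KO values and the other WT mice lay below them. The log2 fold change was 0.11 (SE 0.0547, 95% interval 0.0018 to 0.222, edgeR adjusted p = 0.605), a 1.08-fold level whose interval ended at 1.17-fold. In footprints Wdr6 was at 714, 802 and 730 CPM in WT and at 839, 774 and 775 CPM in KO, which overlapped (log2 0.09, SE 0.0581, adjusted p = 0.680). Wdr6 lies on chromosome 9 (108572311 to 108578713) and shares 9.20% of its exon bases with Dalrd3 on the opposite strand. Ftsj3 was at 39.7, 47.6 and 40.7 CPM in WT and 47.1, 42.0 and 45.0 in KO, with overlapping mice and a log2 fold change of 0.08 (adjusted p = 0.911, edgeR). Its footprints overlapped too, at 84.9, 50.5 and 74.6 CPM in WT and 67.5, 86.4 and 72.0 in KO (log2 0.10, adjusted p = 0.914, edgeR).

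Among the enzymes of cytosine modification, Nsun2 differed least. It was at 280, 278 and 267 CPM in the WT total mRNA libraries and at 280, 277 and 287 in KO, and its 95% interval ran only from -0.08 to 0.15 around a log2 fold change of 0.03 (adjusted p = 0.931, edgeR). Its footprints were at 304, 255 and 253 CPM in WT and 268, 286 and 270 in KO (log2 0.02, adjusted p = 0.959). Nsun2 (chromosome 13, 69612016 to 69635780) overlaps the noncoding gene Gm17108 over 13.7% of its exon bases. Nsun3, which methylates a mitochondrial tRNA, and Alkbh1, which oxidises that mark, were low, at 15.1 ± 1.71 and 15 ± 2.95 CPM in WT and 16.4 ± 2.52 and 16.6 ± 2.31 in KO total mRNA.

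Elp4, a subunit of the Elongator complex that adds side chains to wobble uridines, was 1 of the 3 members without overlap. Its total mRNA was at 37.5, 32.3 and 40.7 CPM in WT and 44.2, 44.2 and 48.8 CPM in KO. Each KO mouse lay above each WT mouse. The log2 fold change was 0.30 (SE 0.129, 95% interval 0.04 to 0.56, edgeR unadjusted p = 0.0261 and adjusted p = 0.525), which did not pass. The footprints of Elp4 overlapped, at 58.0, 61.0 and 62.3 CPM in WT and 64.7, 57.9 and 66.2 in KO (log2 0.05, adjusted p = 0.949). Elp5, of the same complex, was at 3.35 ± 0.511 CPM in WT and 4.50 ± 1.67 in KO (log2 0.40, SE 0.400, adjusted p = 0.854, edgeR), and its value turned to -0.02 when the gene's records were summed.

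Yrdc was the member of lowest adjusted p, and its level was lower in KO total mRNA. The WT mice had 112, 104 and 116 CPM and the KO mice 94.2, 95.4 and 95.6 CPM. No KO mouse reached a WT mouse, and the KO mice lay within 2 CPM of each other. The log2 fold change was -0.22 (SE 0.0849, 95% interval -0.39 to -0.05), a 0.858-fold level that did not pass over all rows (edgeR unadjusted p = 0.0123 and adjusted p = 0.426). Footprints of Yrdc overlapped, with 78.2, 97.6 and 97.3 CPM in WT and 89.7, 97.1 and 76.8 in KO (log2 -0.05, adjusted p = 0.940). Yrdc (chromosome 4, 124850759 to 124855242) shares 30.1% of its exon bases with Maneal and 1110065P20Rik on the opposite strand. Strand use in the counting is not given, so reads of these neighbours may be included.

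The KEOPS subunits that act after Yrdc had nearly equal total mRNA in the genotypes. Osgep was at 22.0, 19.8 and 20.3 CPM in WT and 21.0, 22.7 and 18.7 in KO. Tprkb, which binds the KEOPS kinase, was at 10.7, 9.43 and 10.5 CPM in WT and 11.0, 9.81 and 10.5 in KO. Both log2 fold changes were within 0.03 of 0. Footprints were more scattered: Osgep had 37.8, 42.7 and 35.7 CPM in WT and 25.1, 37.4 and 31.7 in KO (log2 -0.29, adjusted p = 0.722, edgeR). Tprkb footprints were at 31.9, 15.7 and 25.3 CPM in WT and 36.7, 22.3 and 37.4 in KO (log2 0.38, adjusted p = 0.688, edgeR). For both genes the mice of the genotypes overlapped.

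Wybutosine, the large guanosine derivative beside the anticodon of phenylalanine tRNA, needs prior ribose methylation of the loop in yeast, and 2 of its enzymes were measured. Trmt12 was at 52.9, 57.1 and 51.8 CPM in WT total mRNA and 48.3, 55.8 and 48.2 in KO (log2 -0.08, adjusted p = 0.905, edgeR). KO replicate 2 lay within the WT range and the other KO mice below it. Its footprints were at 62.2, 46.2 and 73.9 CPM in WT and 46.3, 47.2 and 55.7 in KO. The log2 fold change of -0.31 (SE 0.176) was the most negative among the members' footprints and did not pass (adjusted p = 0.614, edgeR). Lcmt2 overlapped in both kinds of library, with total mRNA at 20.6 ± 5.01 CPM in WT and 22.3 ± 1.60 in KO.

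Dus3l, a dihydrouridine synthase, was the third member without overlap in total mRNA, at 11.3, 9.43 and 10.5 CPM in WT and 16.3, 11.7 and 14.3 in KO. The KO mice were all above the WT mice, although KO replicate 2 by only a small margin. The log2 fold change of 0.42 (SE 0.228) did not pass (adjusted p = 0.642, edgeR). Trmt61a, the catalytic subunit for 1-methyladenosine in the T loop, had the highest fold change in both kinds of library. It was at 6.30, 8.93 and 4.92 CPM in WT and 7.11, 9.51 and 9.94 in KO total mRNA (log2 0.44, SE 0.289, adjusted p = 0.749). In footprints it was at 7.57, 9.59 and 10.4 CPM in WT and 13.5, 10.7 and 13.4 in KO, with no overlap (log2 0.43, SE 0.351, adjusted p = 0.783, edgeR). It was the sole member without overlap there, 1 of 12 or 8.33%, against 14.7% of all rows.

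The deaminase subunits Adat2 and Adat3, which together turn wobble adenosine into inosine, had fold changes of opposite sign. Adat2 was at 15.1, 8.93 and 14.8 CPM in WT and 11.9, 10.4 and 8.77 in KO (log2 -0.36, SE 0.237, adjusted p = 0.753, edgeR). Adat3 was at 11.0, 10.4 and 11.8 CPM in WT and 15.7, 12.9 and 11.4 in KO (log2 0.26, adjusted p = 0.830). The genotypes overlapped for both, and every exon base of Adat3 also lies in Scamp4 or Gm49322 on the same strand, so its counts cannot be assigned to it alone. Trmt10a, which methylates a guanosine of the tRNA body, had 1.57, 3.97 and 3.61 CPM in WT and 3.56, 2.15 and 0.292 in KO, a log2 value of -0.55 with an SE of 0.554 (adjusted p = 0.854, edgeR). That value rested on single libraries, being -0.04 without KO replicate 3 and -1.27 without KO replicate 1. The other 9 members tested in total mRNA, among them Gtpbp3 and Trmu of mitochondrial wobble uridine, Mettl2 of 3-methylcytosine and Trmt1 of dimethylguanosine, lay between -0.11 and 0.18 (adjusted p 0.872 to 0.997, edgeR).

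**Figure D3:**
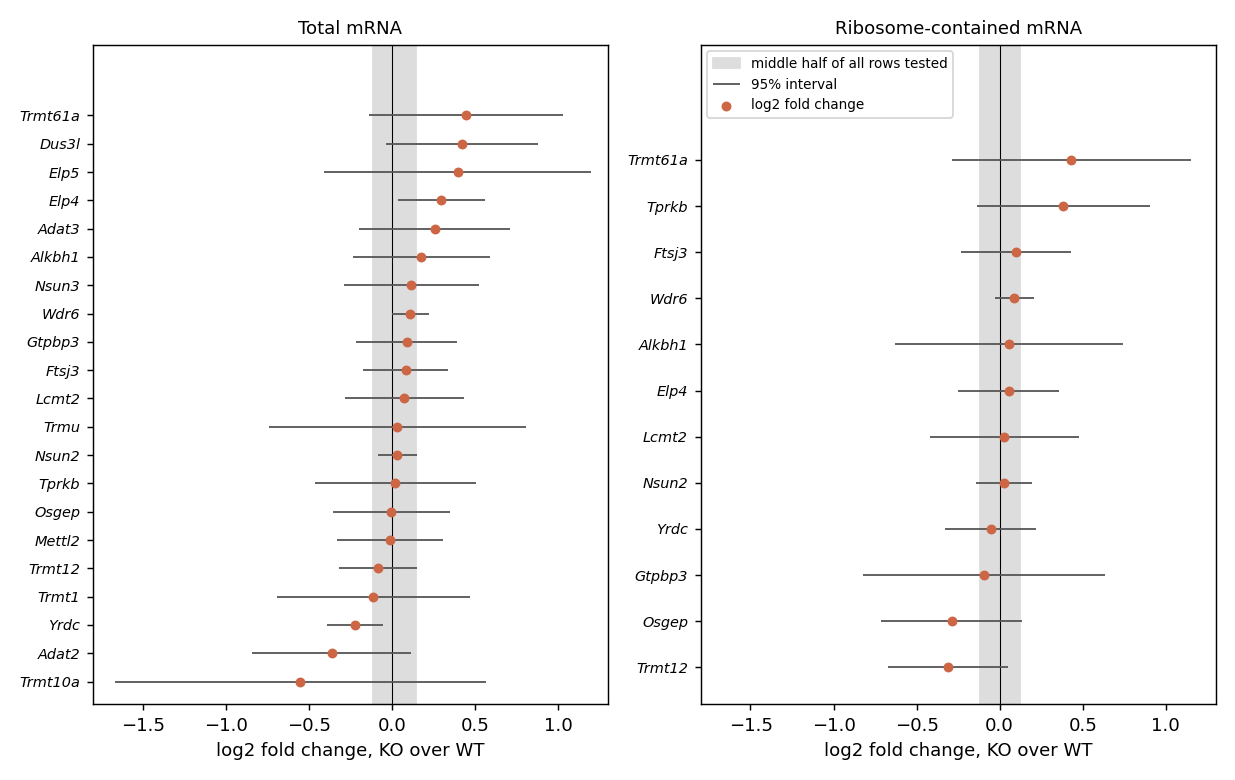
Log2 fold change of KO over WT for each member tested, in total mRNA (21 genes) and in ribosome-contained mRNA (12 genes), with 95% intervals; the grey band runs from the lower to the upper quartile of all rows tested. Intervals of Wdr6 and Nsun2 are narrow and near 0, those of low genes such as Trmt10a are wide, and no member passed the adjusted threshold.

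Footprints per total mRNA, the translation efficiency of a row, were compared between the genotypes as an interaction in 1 model of the 12 libraries. A difference was called for 0 of 12 members and 0 of 4601 rows (0.0%) by edgeR, with an unadjusted p under 0.05 for 0 members and 4.96% of rows, and DESeq2 called 0 members. With the mouse as a block, since the total and footprint libraries come from the same animals, 4 rows passed and no member did. Of the members 3 were positive and 9 negative. The largest values were 0.36 for Tprkb, -0.29 for Osgep, -0.25 for Elp4 and -0.23 for Trmt12, each with an adjusted p of 0.998. For Wdr6 the interval was narrow, from -0.19 to 0.14 around -0.03, and for Yrdc the value was 0.17 (SE 0.155). The other 6 lay between -0.19 and 0.01.

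Ribosome loading, the same ratio within a genotype, ran from a log2 value of -1.62 to 0.91 over the members in WT. The ratio is set against the average row of the libraries, and footprints fall mainly in coding sequence while total mRNA reads also cover untranslated ends. In WT 8 of 12 members differed from that average (edgeR adjusted p under 0.05), 5 higher and 3 lower, where 72.7% of all rows did (36.0% higher and 36.7% lower). In KO 8 of 12 did, 3 higher and 5 lower, where 71.9% of all rows did (35.9% higher and 36.0% lower), and 5 of 12 did without KO replicate 2. A share near that of all rows is not a result about these genes. The median was 0.22 in WT and 0.14 in KO, against 0.02 for all rows in each, whose quartiles were at -0.68 and 0.61 in WT. Of the members, only Tprkb and Gtpbp3 lay outside those quartiles in WT.

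Tprkb, Wdr6, Ftsj3, Elp4 and Osgep were the members loaded above the average in WT by this ratio, which does not account for length. Brackets here hold the edgeR adjusted p. Among genes of a single record ranked per length, a smaller share lay below Wdr6 in footprints (72.9%) than in total mRNA (80.7%). The same held for Ftsj3 (23.7% and 37.3%). For Osgep the share was larger in footprints (30.8%) than in total mRNA (22.1%), and for Elp4 it differed little (36.5% and 35.0%). Total mRNA was ranked per transcript length among 3622 genes, and footprints per coding length among the 3186 tested there. Both the gene set and the length thus differ, so these shares are not a length-corrected loading. Tprkb was highest, at a log2 ratio of 0.91 in WT (adjusted p = 0.00144, edgeR) and 1.27 in KO (adjusted p = 9.48e-06). These values are those of 1 of the 4 records of Tprkb, and a read shared between records may be lost from either library. Wdr6 was at 0.58 (1.7e-12) in WT and 0.56 (4.84e-12) in KO. Its WT level was 396 ± 26.8 CPM in total mRNA and 749 ± 46.7 CPM in footprints. CPM is scaled separately for each library kind, so these levels do not give the ratio. Ftsj3 was at 0.40 (0.0138) in WT and 0.42 (0.0103) in KO. It did not pass in WT without WT replicate 1 (0.21, 0.306) or without WT replicate 3 (0.33, 0.128), nor in KO without KO replicate 2 (0.26, 0.209). Osgep (0.55, 0.0066) and Elp4 (0.37, 0.0174) passed in WT, and without WT replicate 2 neither did (0.46, 0.0652 and 0.30, 0.111). In KO they were at 0.26 (0.219) and 0.12 (0.429). That both passed in WT and not in KO is no difference between the genotypes, since the interactions above did not pass.

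Gtpbp3, Yrdc and Nsun2 lay below the average in both genotypes (adjusted p by edgeR in brackets). Gtpbp3, the GTPase that modifies wobble uridine in mitochondrial tRNAs, was lowest, at -1.62 (6.35e-08) in WT and -1.81 (1.47e-08) in KO. Its WT mice had 29.0, 32.7 and 31.8 CPM in total mRNA and 16.0, 12.2 and 10.4 in footprints. Its KO mice had 39.4, 33.4 and 26.3 CPM in total mRNA and 7.72, 9.80 and 18.2 in footprints. In CPM, which is scaled separately for each library kind, total mRNA was above footprints in each of these mice. The value is that of 1 of the 3 records of Gtpbp3, and a read shared between records may be lost from either library. Yrdc was at -0.61 (1.77e-06) and -0.45 (0.000413), and Nsun2 at -0.36 (1.06e-05) and -0.37 (8e-06). Nsun2 and Wdr6, with nearly equal total mRNA per length, thus lay on opposite sides of the average in both genotypes.

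Alkbh1 and Trmt12 passed as lower in KO only, at -0.64 (0.0315) and -0.37 (0.0288), beside -0.52 (0.0813) and -0.13 (0.399) in WT (adjusted p by edgeR in brackets). Both calls were lost without KO replicate 2 (-0.29, 0.437 for Alkbh1; -0.26, 0.218 for Trmt12), with DESeq2 (adjusted p = 0.0744 and 0.0612) and with no filter on low counts (0.136 and 0.197). The call for Trmt12 was also lost without KO replicate 1 (-0.34, 0.108). Alkbh1 total mRNA was at 13.9, 18.4 and 12.8 CPM in WT and 17.5, 18.4 and 14.0 in KO, and its footprints were at 15.1, 13.1 and 11.0 in WT and 17.4, 8.02 and 15.4 in KO. Lcmt2 (0.25 in WT, 0.21 in KO) and Trmt61a (0.18 and 0.16) did not pass in either genotype.

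**Figure D4:**
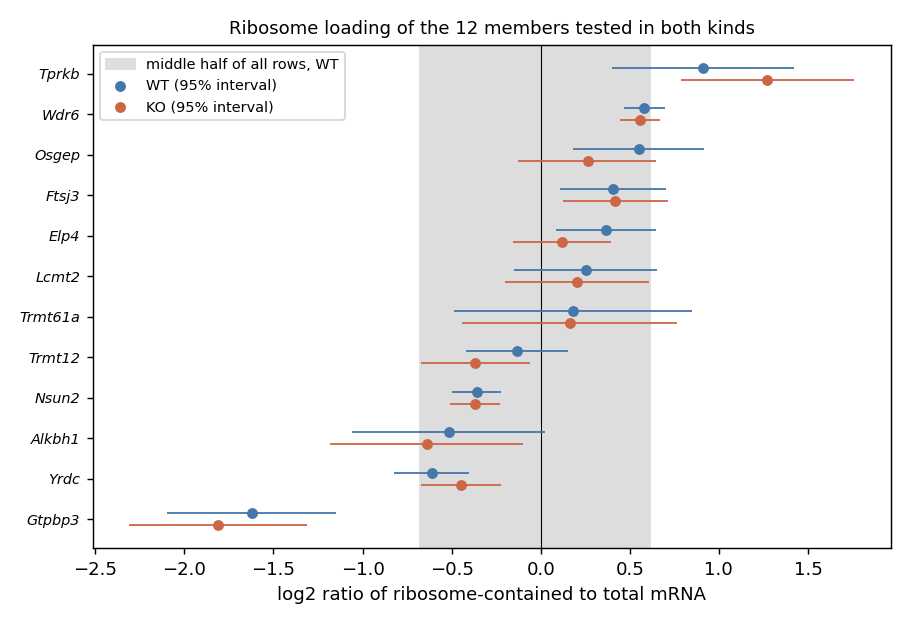
Log2 ratio of footprints to total mRNA for the 12 members tested in both kinds of library, in WT and in KO, with 95% intervals and the span between the quartiles of all rows in WT in grey. The order from Tprkb at the top to Gtpbp3 at the bottom is much the same in the genotypes.

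Several members with clear total mRNA had almost no footprints. Dus3l (chromosome 17, 56764751 to 56770093), a gene of a single record with no exon overlap with other genes, had 87 total mRNA counts in WT and 142 in KO and 0 footprints in all 6 libraries. A floor of 3 counts over the 3 libraries of a genotype was 0.773 CPM in WT and 0.937 in KO. Against that floor, its footprint level was at least 13.5-fold lower than its total mRNA level in WT and at least 15-fold lower in KO. Such folds compare CPM that were scaled separately for each library kind. Among 2987 coding genes of a single record with at least as many total mRNA counts as Dus3l, 6 (0.201%) had no footprint. Dus3l has 2 transcript models in RefSeq, of which the table lists 1, and among the 413 of these genes with 2 or more models 5 (1.21%) had none, against 1 of 2561 (0.039%) with a single model. Trmt1, with 64 counts in WT and 73 in KO, also had 0 footprints (at least 10.5-fold lower in WT, 7.74-fold in KO). Nsun3 had 290 total mRNA counts over both genotypes and 2 footprints, both in KO, and was at least 19.5-fold lower in WT.

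Mettl2 had 553 total mRNA counts and 29 footprints. Its WT mice had 31.8, 35.2 and 25.3 CPM in total mRNA and 3.67 ± 2.24 CPM in footprints, and its KO mice 30.8, 24.2 and 35.4 CPM and 4.74 ± 2.04. With no filter on low counts its log2 loading was -3.26 in WT and -2.90 in KO. Adat2 (-1.14 and -1.26) and Adat3 (-0.88 and -1.31) were also below 0 in that fit. The Adat3 values cannot be assigned to Adat3 alone, since other genes on the same strand cover all its exon bases. Adat2 shares 17% of its exon bases with Pex3 on the opposite strand. Trmu had 1 footprint and Trmt10a 0, beside 85 and 44 total mRNA counts. The Trmu record is a predicted non-coding transcript model, so its near lack of footprints does not speak for the loading of Trmu mRNA. Nsun3, Trmt1, Mettl2, Adat2, Trmu and Trmt10a have several transcript records each, so their values speak for 1 record, and the value of Dus3l for 1 of its 2 models.

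Genes next to these in the life of a tRNA showed no called change either. Of 33 further tRNA modification genes 14 were tested in total mRNA and 9 in footprints, of 29 tRNA processing genes 14 and 11, and of 21 genes of RNA polymerase III, which transcribes tRNA, and its factors 11 and 6. In each list 0 were called between KO and WT in total mRNA, footprints or translation efficiency by edgeR, and 0 by DESeq2, which gave no adjusted p for 8, 10 and 4 of the genes tested in total mRNA. An edgeR unadjusted p under 0.05 was met by 2, 0 and 2 genes of the lists in total mRNA (14.3%, 0.0% and 18.2%, against 8.15% of all rows). It was met by 0 in footprints (9.48% of all rows), and by 1, 0 and 1 for translation efficiency (11.1%, 0.0% and 16.7%, against 4.96%). Median log2 fold changes in total mRNA were 0.04, 0.02 and 0.08, beside 0.00887 for all rows. The pseudouridine synthase Trub1 went from 9.76 ± 1.41 to 13.9 ± 2.89 CPM (log2 0.52, adjusted p = 0.559) and the polymerase subunit Polr3g from 10.5 ± 1.40 to 7.04 ± 1.79 CPM (-0.58, adjusted p = 0.576), neither of which passed.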

How the data were processed

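Per the file headers, the transcript table deposited for the 12 HiSeq libraries has 1 row per RefSeq accession, and its values are unnormalized read counts (whole numbers, sums differing by library). The submitters' processing notes name Bowtie2, HISAT2, HTSeq and mm10; how strand and reads matching several transcripts were treated is not given in the sources used here. The deposited codon counts of the 6 MiSeq libraries were not used here. Column names do not give the instrument, so footprint columns were taken as HiSeq from the table's name.

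Accessions were matched to symbols with a RefSeq gene table of GRCm38, which gave 86040 of 106519 rows and 98.0% of counts. The row of most counts stood for each gene. Transcript and coding lengths came from GENCODE, since no protein table was used, and exon overlaps from the same annotation.

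Counts were tested over all rows with edgeR 4.0.16 (robust quasi-likelihood, TMM, minimum count 10, minimum total 15) in R 4.3.3 with limma 3.58.1, with Benjamini-Hochberg adjustment and a threshold of 0.05. Each library kind was fitted alone; translation efficiency and loading came from 1 model of 12 libraries. Scripts were tested on simulated data. CPM uses TMM library sizes. Alternatives were DESeq2 1.42.0, its size factors, no filter, summed accessions, replicate blocks and each library left out.

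Replicates were separate mice by label, and pairs of the same genotype differed beyond sampling noise (chi-square per degree of freedom 1.50 to 2.11). Total and footprint libraries of a mouse are paired by label, with deviations correlated at 0.0258 to 0.149. Floors cover counting error only. Members and lists were chosen with earlier results of these data known. Values per sample are given for Ftsj1, Thada and Wdr6, members called or with an unadjusted p under 0.05, the highest and lowest levels, and the largest fold changes and loadings.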

Additional observations from a re-analysis of the deposited data

How the results depend on the processing

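Over all alternatives, 0 members were called in the 3 comparisons of KO and WT. In total mRNA 27 rows were called, 43 with no filter, and 9 to 42 with a library left out. In ribosome-contained mRNA the 10 became 27 with no filter, 48 with replicate numbers as a block, and 4 to 24 with a library left out. WT and KO mice of the same number did not deviate together (correlations -0.0725 to 0.0252), so the number does not pair them. For translation efficiency the 0 became 4 with no filter, 4 with mouse as a block (replicate block), and 0 to 4 with a library left out. Loading called 3344 rows in WT and 3309 in KO, and 6571 and 6477 with no filter, where 18 and 13 members passed in place of 8 and 8. With a library left out, 6 to 8 members passed in WT and 5 to 8 in KO, and the mouse block changed no member's call. With no filter, 53 members entered the total mRNA fit in place of 21 and 33 the footprint fit in place of 12, most on a few counts. Over the members tested, signs turned with accessions summed in total mRNA for Elp5 (-0.022), Mettl2 (0.0307) and Osgep (0.00027), and with no filter for the translation efficiency of Ftsj3 (-0.00216). Ranges with a library left out crossed 0 for members that passed no test in that comparison. In total mRNA these were Gtpbp3 (-0.0576 to 0.230), Lcmt2 (-0.0762 to 0.209), Mettl2 (-0.145 to 0.121), Nsun3 (-0.0158 to 0.217), Osgep (-0.0707 to 0.0668), Tprkb (-0.025 to 0.0597), Trmt1 (-0.358 to 0.0666) and Trmu (-0.184 to 0.599). In footprints they were Alkbh1 (-0.161 to 0.335), Ftsj3 (-0.0723 to 0.245), Gtpbp3 (-0.521 to 0.128), Lcmt2 (-0.0942 to 0.184), Nsun2 (-0.028 to 0.115) and Yrdc (-0.145 to 0.0363). For translation efficiency they were Alkbh1 (-0.344 to 0.220), Ftsj3 (-0.243 to 0.211), Gtpbp3 (-0.766 to 0.194), Lcmt2 (-0.231 to 0.077), Nsun2 (-0.0671 to 0.067), Trmt61a (-0.215 to 0.261) and Wdr6 (-0.12 to 0.0212). In loading they were Trmt12 in WT (-0.337 to 0.058) and Trmt61a in WT (-0.111 to 0.366) and KO (-0.0167 to 0.316). The cause was not tested. Depth limits the low genes: intervals on the log2 scale were 0.22 wide for Wdr6 and 2.23 wide for Trmt10a in total mRNA.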
